A study of Drosophila melanogaster with 10 samples.

Results

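Embryos driving the dapPCNA form of the cell cycle inhibitor gene dacapo (dap) were compared with embryos driving wild-type dap, gene by gene. The comparison was defined by genotype labels, and it was chosen with earlier results of these data known. It uses 4 of the 10 libraries in the series, 2 of dapPCNA and 2 of dap, and 10396 of the 15422 genes in the table. Genes were tested if they reached at least 1 RPKM, the reads of a gene scaled to its transcript length in kilobases and to the megareads mapped, in at least 2 of the 10 libraries. The dapPCNA embryos were pros-Gal4/UAS-dap[PCNA], and the labels describe the Dacapo protein they make as stabilized. The dap embryos were pros-Gal4/UAS-dap, with the wild-type protein. The other genotypes enter the fit and are shown as landmarks, namely dapCRL4 (pros-Gal4/UAS-dap[CRL4]) and dapCDI (pros-Gal4/UAS-dap[CDI]), both also labelled as stabilized, and the control (pros-Gal4/+), which carries the driver and no UAS transgene. All were whole embryos of stages 15 to 16 grown at 25 °C, and 2 independent samples of each genotype were sequenced as polyA RNA. The labels name no change in the embryos' own dap gene, and every genotype carries the driver. Residues changed in the PCNA form, insertion sites and the sex of the embryos are left unstated in the sources used here. The driver takes its expression from prospero, a gene of the nervous system and a few other organs, so most cells of the embryo need not make the transgene. In such bulk samples, fewer cells of a type and less RNA per cell cannot be told apart.

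Dacapo is the Drosophila member of the p21 and p27 family of inhibitors, which bind Cyclin E with Cdk2 and hold cells in G1. Proteins with a PIP degron bind PCNA, the sliding clamp of replication, when it is loaded on DNA, and are then marked for destruction by the ubiquitin ligase CRL4 with its substrate reader Cdt2. In the late embryonic nerve cord, most neuroblasts and their daughters, the ganglion mother cells, finish their divisions, and the cells that remain in cycle express genes for mitosis and cytokinesis.

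The libraries held an estimated 21.4 and 17.7 megareads counted in dapPCNA and 20.8 and 20.9 megareads in dap. Replicates differed by a median of 0.0909 on the log2 scale per gene in dapPCNA and 0.127 in dap, while the difference between the genotypes had a median size of 0.162. The change also followed transcript length across genes. Its Spearman correlation with exon length was 0.518 (a description across genes, which share the same 4 libraries), and it lay between 0.312 and 0.560 for the 4 pairings of one dapPCNA library with one dap library. The same correlation was −0.268 between the 2 dapPCNA libraries and −0.341 between the 2 dap libraries. Because of this trend, log2 changes after removal of the length trend from each library are given beside the main results. The part of the trend in any single gene was not tested.

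The gene carried by the transgenes came first. dap RNA stood at 70.7 and 73.3 RPKM in the dapPCNA libraries and 85.8 and 83.4 RPKM in the dap libraries, against 70.5 and 70.7 RPKM in the control. Both dapPCNA libraries lay close to the control and below both dap libraries, the latter as in 38.1% of all genes tested. The log2 change between dapPCNA and dap was −0.23 (95% interval −0.38 to −0.08, limma), with an adjusted p of 0.105, so the gene was not called. In dapCRL4 the values were 81.0 and 75.7 RPKM and in dapCDI 170.2 and 156 RPKM. Reads from the transgene and from the embryos' own gene cannot be told apart in this table, and whether the transgenes share the gene's full transcript is likewise unstated. The dap gene lies on arm 2R, 9712321 to 9716256 (BDGP6, as are all positions here).

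Genes for the proteins that Dacapo and its degron meet were not called. PCNA (mus209 in the table) had 84.1 and 91.9 RPKM in dapPCNA and 114 and 108 RPKM in dap, with a log2 change of −0.34 and an adjusted p of 0.138. After the length correction the change of PCNA was −0.17 (adjusted p = 0.388, limma). Cdk2 (cdc2c), the kinase that Dacapo inhibits, had 18.2 and 16.8 RPKM in dapPCNA against 26.2 and 22.6 RPKM in dap, a log2 change of −0.48 that missed the threshold at an adjusted p of 0.0622. Both of these genes were lower in both dapPCNA libraries than in either dap library, as were 38.1% of all genes tested. Cyclin E, the partner of Cdk2, had 11.7 and 12.7 RPKM in dapPCNA and 14.9 and 11.6 RPKM in dap, and the genotypes overlapped (log2 change −0.11, 95% interval −0.43 to 0.20, adjusted p = 0.642). Cdt2 (l[2]dtl), the substrate reader of CRL4, had 10.9 and 11.5 RPKM in dapPCNA against 14.0 and 12.8 RPKM in dap, with a log2 change of −0.26 and an adjusted p of 0.245. The scaffold Cul4 stood at 24.5 and 26.4 RPKM in dapPCNA and 26.9 and 24.4 RPKM in dap (log2 change −0.01, 95% interval −0.19 to 0.17, adjusted p = 0.955). Among 21 tested genes for PCNA, its loader, its binding partners and CRL4-Cdt2, 0 were called in either direction by limma. Of the 21, 4 had an unadjusted p under 0.05, beside 2494 of all 10396 genes tested. The median log2 change of the 21 was −0.14 (−0.04 after the length correction), beside −0.05 over all genes tested (0.0036 after it). Without dapPCNA 1 it was −0.07 and without dap 1 −0.04, and over all genes it ran from −0.08 without dap 2 to −0.03 without dap 1. On the annotation cdc2c overlaps CG17267 and Cul4 overlaps Tmem63, so their values are uncertain if reads of both strands were pooled. Among 17 genes of the SCF ligase, neddylation and the COP9 signalosome, the signalosome subunit CSN4 alone was called (5.88% of the list, beside 1.33% of all genes tested), with 23.3 and 23.8 RPKM in dapPCNA and 31.1 and 30.3 RPKM in dap (log2 change −0.38, adjusted p = 0.0406, and 0.0239 to 0.253 over the alternatives). The call of CSN4 was lost after the length correction (log2 change −0.27, adjusted p = 0.0918, limma). It was also lost without any one of the dapPCNA or dap libraries.

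Across the table, 138 genes were called at an adjusted p under 0.05 (limma with Benjamini-Hochberg adjustment over 10396 genes), which is 1.33% of those tested. Of these, 36 were higher in dapPCNA (0.346% of genes tested) and 102 were lower (0.981%). The remaining 10258 genes were not called, although 2494 genes had an unadjusted p under 0.05. Only 25 called genes differed by at least 2-fold, 8 of them higher and 17 lower, and 65 differed by less than 1.5-fold. After the length correction 82 of 10215 genes were called (0.803%), 30 higher (0.294%) and 52 lower (0.509%), and 61 of the 138 genes were among them. The split between higher and lower calls depended on scaling, with 56 higher and 89 lower after quantile normalization and 52 higher and 80 lower after median centring. The number of calls also rested on single libraries. It was 8 without dapPCNA 1, 25 without dapPCNA 2, 67 without dap 1 and 18 without dap 2, and without dap 1 the split turned to 47 higher and 20 lower. Leaving out a library of the other genotypes, which changes only the shared estimate of spread, gave 41 to 53 calls for the control and dapCRL4 libraries, and 725 and 741 calls without dapCDI 1 and dapCDI 2. Every called gene kept its direction under each of the 21 alternatives in which it was tested.

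**Figure D1:**
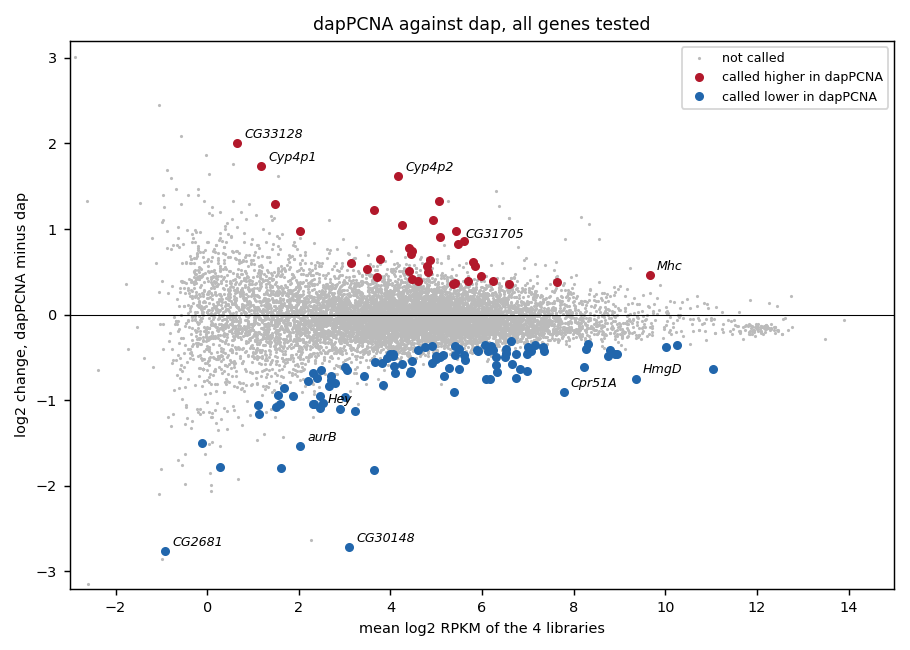
Log2 change between dapPCNA and dap against the mean log2 RPKM of the 4 libraries, one point for each gene tested. The 36 genes called higher and the 102 called lower are coloured, and CG30148, Cyp4p2 and Cpr51A stand clear of the grey cloud at their expression levels. 78 genes that were not called lie outside the axes.

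A group of 9 genes of mitosis and cytokinesis fell, some by more than 2-fold, and no member of that list was called higher. Of 62 tested members of the mitosis list, 9 were called lower and 0 higher, 14.5% of the list beside the 0.981% of all genes tested that were called lower. The median log2 change of the list was −0.42, beside −0.05 for all genes tested, and it was −0.40 after the length correction. Both dapPCNA libraries lay below both dap libraries in 45 of the 62, beside 38.1% of all genes tested. Leaving out any single dapPCNA or dap library left the median between −0.47 and −0.38. A further 3 genes were called lower among the 25 tested for Dacapo, the cyclins and entry into S phase (12% of that list), whose median was −0.23.

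The chromosomal passenger complex, which corrects attachments of chromosomes and starts cytokinesis, held the largest of these changes. Its kinase Aurora B (ial in the table, arm 2L, 10856797 to 10858094) had 2.27 and 2.52 RPKM in dapPCNA and 5.83 and 8.20 RPKM in dap. The 2 dapPCNA libraries lay below all other libraries, and the control held 5.06 and 4.80 RPKM. The log2 change was −1.53 ± 0.17 (SE), with an adjusted p of 0.00636, and −1.37 after the length correction. The Borealin subunit borr had 3.99 and 3.89 RPKM in dapPCNA and 7.17 and 8.11 RPKM in dap (log2 change −0.95, adjusted p = 0.0266). A further subunit, Incenp, was not called at 10.7 and 11.2 RPKM in dapPCNA and 12.6 and 12.9 RPKM in dap (log2 change −0.22, adjusted p = 0.172).

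Both subunits of centralspindlin, the complex that bundles midzone microtubules and calls in the contractile ring, fell. The kinesin pav had 1.93 and 2.27 RPKM in dapPCNA and 4.39 and 4.27 RPKM in dap, with 4.31 and 4.52 RPKM in the control (log2 change −1.05, adjusted p = 0.0223). The RacGAP tum had 4.63 and 4.79 RPKM in dapPCNA and 9.12 and 7.78 RPKM in dap (log2 change −0.84, adjusted p = 0.0197). The citron kinase sti, which stabilizes the cleavage furrow and midbody, had 2.69 and 2.60 RPKM in dapPCNA and 5.57 and 4.70 RPKM in dap, with 6.16 and 5.90 RPKM in the control (log2 change −0.95, adjusted p = 0.0223). In each of these genes the 2 dapPCNA libraries lay below both dap libraries, and the 2 genotypes lay apart in all 138 called genes. With an exon length of 6084 bases sti is among the longer genes, and its log2 change after the length correction was −1.12 (adjusted p = 0.00503, and 0.00503 to 0.142 over the alternatives).

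Among factors of chromosome compaction, the condensin subunit CAP-D2 had 1.94 and 1.98 RPKM in dapPCNA and 3.96 and 4.32 RPKM in dap (log2 change −1.08, adjusted p = 0.0174). Topoisomerase 2 (Top2), which untangles sister chromatids, had 18.4 and 18.4 RPKM in dapPCNA and 28.3 and 25.3 RPKM in dap, with 32.5 and 29.3 RPKM in the control (log2 change −0.54, adjusted p = 0.026). CAP-D2 was the only condensin subunit called. Cap-G had 9.43 and 8.85 RPKM in dapPCNA and 13.3 and 11.3 RPKM in dap (log2 change −0.43, adjusted p = 0.0881), and barr averaged 9.79 ± 0.166 RPKM in dapPCNA and 12.7 ± 0.315 RPKM in dap (SD, n = 2 each; log2 change −0.38, adjusted p = 0.0769). The core subunits glu and SMC2 had log2 changes of −0.54 (adjusted p = 0.121) and −0.43 (adjusted p = 0.171). Both dapPCNA libraries lay below both dap libraries in these 4 genes as well, as they did in 38.1% of all genes tested. The condensin II subunits Cap-H2 and Cap-D3 had positive log2 changes of 0.05 (adjusted p = 0.809) and 0.17 (adjusted p = 0.453), and that of Cap-H2 was −0.02 after the length correction. Cap-D3 is in no list and was named after its value was seen. At the spindle and kinetochore, the microtubule-binding protein mars had 2.55 and 2.23 RPKM in dapPCNA and 4.23 and 4.44 RPKM in dap (log2 change −0.86, adjusted p = 0.0383). The kinetochore subunit Kmn1 had 3.72 and 4.51 RPKM in dapPCNA and 7.41 and 6.32 RPKM in dap (log2 change −0.74, adjusted p = 0.0408). Kmn1 overlaps CG11699 and mars overlaps drk on the annotation, so their values are uncertain if reads of both strands were pooled.

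Regulators of mitotic entry and exit were called lower in part. Cyclin A (CycA), a partner of Cdk1 in the step into mitosis, had 23.5 and 26.1 RPKM in dapPCNA and 37.3 and 36.0 RPKM in dap (log2 change −0.57, adjusted p = 0.0231). Its kinase Cdk1 (cdc2) had 12.5 and 15.1 RPKM in dapPCNA and 22.7 and 19.2 RPKM in dap (log2 change −0.60, adjusted p = 0.046). The Cdc20 homologue fzy, which activates the anaphase-promoting complex, had 5.29 and 4.94 RPKM in dapPCNA and 8.43 and 8.31 RPKM in dap (log2 change −0.71, adjusted p = 0.0398). It overlaps cact, a more abundant gene that was not called, so the value of fzy is uncertain. After the length correction fzy was not called (log2 change −0.63, adjusted p = 0.0656, limma). Cyclin B (CycB) and Cyclin B3 (CycB3) were not called, with log2 changes of −0.51 (adjusted p = 0.065) and −0.43 (adjusted p = 0.0869). The mitotic phosphatase string (stg) had 27.2 and 26.7 RPKM in dapPCNA and 30.9 and 28.1 RPKM in dap, a log2 change of −0.13 (adjusted p = 0.353).

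These 12 called genes of division had negative changes in every alternative, but their calls rested on single libraries. Without dapPCNA 1, 0 of the 12 were called, with adjusted p between 0.054 and 0.284. There was 1 call without dapPCNA 2, 2 calls without dap 1 and 1 call without dap 2. Of the 10 with an exon length, 8 were called after the length correction. Among the 9 called members of the mitosis list, the mean of the control was nearer to dap than to dapPCNA in 9 of 9, while dapCRL4 and dapCDI were nearer to dapPCNA in 8 of 9 each. Among all 102 genes called lower, the control was nearer to dap in 43. There, dapCRL4 was nearer to dapPCNA in 76 and dapCDI in 57. These counts are descriptions, since dap entered the choice of the genes.

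**Figure D2:**
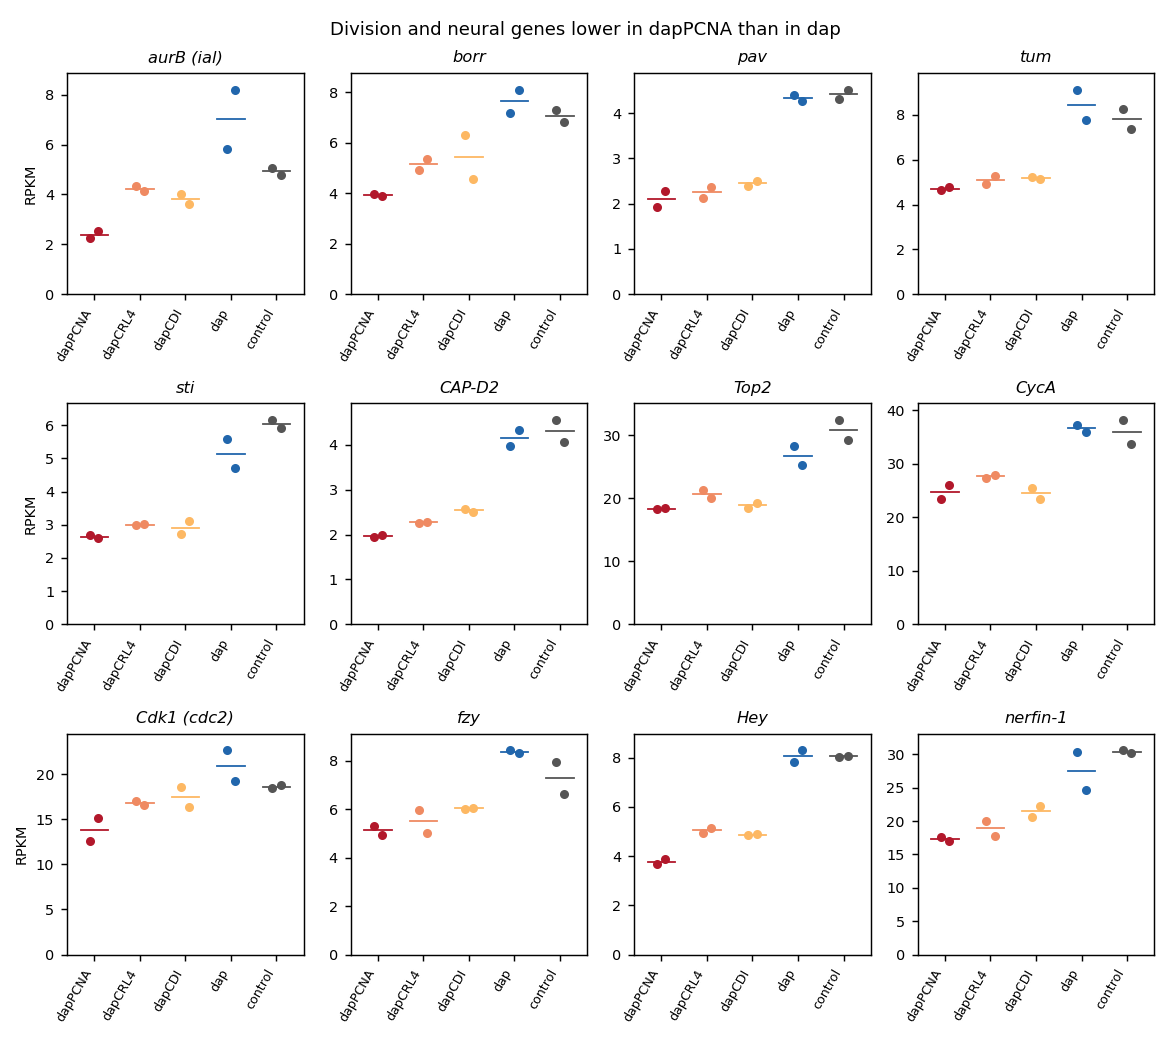
RPKM in every library of ial, borr, pav, tum, sti, CAP-D2, Top2, CycA, cdc2 and fzy, and of the neural genes Hey and nerfin-1. The called division genes mars and Kmn1 are not shown. Each of the 12 panels holds a single gene, with 2 points for the 2 libraries of each genotype and a line at their mean. In each panel both dapPCNA libraries sit below both dap libraries, and the 2 genotypes lay apart in all 138 called genes. For pav both control libraries (4.31 and 4.52 RPKM) sit at the dap level.

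The other 53 tested members of the mitosis list were not called. The kinase polo missed the threshold narrowly, averaging 7.33 ± 0.701 RPKM in dapPCNA and 10.7 ± 0.627 RPKM in dap (SD, n = 2 each; log2 change −0.55, adjusted p just above 0.05). So did the kinesin Klp67A, with 1.70 and 1.60 RPKM in dapPCNA and 3.21 and 3.13 RPKM in dap (log2 change −0.94, adjusted p = 0.0501). The list was not uniform, and 12 members had positive changes. The furthest up was the anaphase-promoting complex subunit shtd, with 3.27 and 3.52 RPKM in dapPCNA and 3.03 and 2.63 RPKM in dap (log2 change 0.26, adjusted p = 0.376). The microtubule polymerase msps (log2 change 0.23, adjusted p = 0.255) and the centrosome protein cnn (log2 change 0.17, adjusted p = 0.215) were also on that side. Outside the list, genes with spindle or nuclear envelope roles were picked out after their values were seen. The kinetochore subunit Kmn2 (CG42550), which overlaps PIG-H, had 7.54 and 5.35 RPKM in dapPCNA and 13.2 and 14.6 RPKM in dap (log2 change −1.13, adjusted p = 0.0277). The spindle protein mei-38 (log2 change −1.06), the augmin subunit msd1 (log2 change −0.94), the nuclear lamina protein kuk (log2 change −0.72) and RanGap, the GTPase-activating protein of Ran (log2 change −0.55), were also called lower. The values of mei-38, which overlaps rush, and msd1, which overlaps msd5, are uncertain. After the length correction 2 of these 5 genes were called. Of these 5 genes, 0 were called without dapPCNA 1, 0 without dapPCNA 2, 1 without dap 1 and 1 without dap 2.

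Genes of DNA replication were not called one by one. Of 41 tested, 0 were called in either direction by limma and 14 had an unadjusted p under 0.05, beside 2494 of all 10396 genes tested. In all, 38 had negative log2 changes, beside 6069 of the 10396. The list's median was −0.25, and −0.17 after the length correction. Both dapPCNA libraries lay below both dap libraries in 31 of the 41, beside 38.1% of all genes tested. The furthest down was the polymerase epsilon subunit Pole2, with 5.66 and 6.53 RPKM in dapPCNA and 8.63 and 8.60 RPKM in dap (log2 change −0.50, adjusted p = 0.0869). The helicase subunit Mcm3 had 8.07 and 8.91 RPKM in dapPCNA and 12.2 and 11.7 RPKM in dap (log2 change −0.49, adjusted p = 0.0735). The ribonucleotide reductase subunit RnrL, needed for nucleotide supply, averaged 34.7 ± 1.87 RPKM in dapPCNA and 40.2 ± 2.44 RPKM in dap (SD, n = 2 each; log2 change −0.22, adjusted p = 0.181).

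Abundant chromatin proteins appeared among the called genes as well. They were in no list and were picked out after their values were seen, so their number is a description. The HMG-box protein HmgD, which bends DNA in chromatin (arm 2R, 21701458 to 21716727), had 493 and 517 RPKM in dapPCNA and 860.4 and 835 RPKM in dap, and 816 and 723 RPKM in the control. Its log2 change was −0.75 ± 0.08 (SE; adjusted p = 0.00511) and −0.66 after the length correction. Its relative HmgZ had 896 and 919 RPKM in dapPCNA and 1198 and 1158 RPKM in dap (log2 change −0.38, adjusted p = 0.0468). The heterochromatin protein HP1a (Su[var]205) had 93.8 and 106 RPKM in dapPCNA and 159.9 and 156 RPKM in dap (log2 change −0.66, adjusted p = 0.0174). The histone chaperone Set had 63.0 and 65.2 RPKM in dapPCNA and 97.0 and 95.8 RPKM in dap (log2 change −0.59, adjusted p = 0.00986). The variant histones His2Av and His3.3A had log2 changes of −0.46 and −0.46 (adjusted p = 0.0237 and 0.046). Also called lower were baf, which ties chromatin to the nuclear envelope (log2 change −0.63), the satellite-binding protein D1 (log2 change −0.42) and HP1c (log2 change −0.40). Su[var]205, His3.3A and HP1c overlap CG8419, Nepl3 and CG17141 on the annotation, so their values are uncertain. The control mean was nearer to dapPCNA in 4 of the 9 (His2Av, HP1c, His3.3A and Su[var]205) and nearer to dap in the other 5. After the length correction 5 of the 9 were called, and 0 of the 9 without dapPCNA 1, with adjusted p between 0.0522 and 0.288. There were 2 calls without dapPCNA 2, 2 calls without dap 1 and 1 call without dap 2.

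Genes of neuroblasts and their daughter cells were called in both directions, and Hey had the smallest adjusted p among them. Of 41 tested genes for neuroblasts, ganglion mother cells and the Notch response, 3 were called lower and 1 higher, 7.32% and 2.44% of the list, beside 0.981% and 0.346% of all genes tested. After the length correction 2 were called lower and 0 higher. The list's median log2 change was 0.07, and it rested on single libraries, at −0.00 without dapPCNA 1, 0.11 without dapPCNA 2, 0.16 without dap 1 and −0.06 without dap 2. The bHLH repressor Hey, a Notch target in newborn neurons (arm 2R, 7995438 to 7998278), had 3.66 and 3.89 RPKM in dapPCNA and 7.81 and 8.31 RPKM in dap. The control held 8.03 and 8.08 RPKM, at the dap level, and dapCRL4 held 4.95 and 5.14 RPKM and dapCDI 4.84 and 4.88 RPKM. The log2 change of Hey was −1.09 ± 0.11 (SE), with an adjusted p of 0.00495, and −0.98 after the length correction. The zinc finger gene nerfin-1, expressed in young neurons and their precursors, had 17.6 and 17.0 RPKM in dapPCNA and 30.3 and 24.7 RPKM in dap (log2 change −0.66, adjusted p = 0.026). The Bearded family member Tom had 31.1 and 31.2 RPKM in dapPCNA and 47.9 and 48.1 RPKM in dap, but 34.3 and 34.9 RPKM in the control, near the dapPCNA level (log2 change −0.62, adjusted p = 0.0223). After the length correction Tom was not called (log2 change −0.44, adjusted p = 0.0612, limma). In the other direction, the orphan receptor svp, which switches neuroblast temporal identity, had 26.7 and 24.4 RPKM in dapPCNA and 19.5 and 18.6 RPKM in dap (log2 change 0.42, adjusted p = 0.0415), and 0.27 after the length correction (adjusted p = 0.0939, and 0.027 to 0.284 over the alternatives).

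The neuroblast identity genes dpn and wor were not called. The transcription factor dpn had 11.5 and 11.9 RPKM in dapPCNA and 11.8 and 9.53 RPKM in dap (log2 change 0.15, adjusted p = 0.461), and wor had 9.25 and 10.2 RPKM in dapPCNA and 9.32 and 8.73 RPKM in dap (log2 change 0.10, adjusted p = 0.58). The driver's own gene pros stood at 16.2 and 15.8 RPKM in dapPCNA and 17.2 and 13.4 RPKM in dap (log2 change 0.07, adjusted p = 0.787). The Notch target E[spl]m8-HLH had 6.92 and 5.45 RPKM in dapPCNA and 10.4 and 8.58 RPKM in dap and was not called (log2 change −0.62, adjusted p = 0.0649). Outside the list, spdo, which is needed for Notch signalling in asymmetric divisions, was called lower at 6.93 and 6.17 RPKM in dapPCNA and 10.1 and 9.85 RPKM in dap (log2 change −0.61, adjusted p = 0.0334); it was named after its value was seen. The 4 called genes of the list were Hey, nerfin-1, Tom and svp. Of them 0 were called without dapPCNA 1, 1 without dapPCNA 2, 1 without dap 1 and 2 without dap 2. The call of spdo was lost without any one of these libraries.

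The largest differences by fold lay outside the lists of division and neural genes. The uncharacterized gene CG30148 (arm 2R, 20546595 to 20547658) had 4.11 and 2.72 RPKM in dapPCNA and 22.5 and 21.5 RPKM in dap. Its level in dapPCNA was near that of the control (2.59 and 1.90 RPKM), while dapCRL4 (26.6 and 27.6 RPKM) and dapCDI (22.7 and 18.2 RPKM) were at the dap level. The log2 change was −2.72 ± 0.20 (SE), 6.58-fold lower, with an adjusted p of 0.000715. CG2681 had 0.273 and 0.151 RPKM in dapPCNA and 1.23 and 1.55 RPKM in dap, and 0.371 and 0.210 RPKM in the control, an estimated 13 and 6 reads in dapPCNA and 58 and 74 reads in dap (log2 change −2.77, adjusted p = 0.04). TotE (Victoria), a Turandot stress peptide gene, had 7.27 and 6.15 RPKM in dapPCNA and 28.3 and 19.5 RPKM in dap (log2 change −1.81, adjusted p = 0.0406). Both CG2681 and TotE lost the call after the length correction, with adjusted p of 0.0506 (0.0258 to 0.206 over the alternatives) and 0.0679 (0.00574 to 0.179).

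The cuticle protein gene Cpr51A (arm 2R, 14512559 to 14515211) changed less in fold. It had 156 and 165 RPKM in dapPCNA and 292 and 311 RPKM in dap, with 158 and 147 RPKM in the control, so that dap stood above the other genotypes, which ranged up to 211 RPKM. The log2 change was −0.91 ± 0.08 (SE; adjusted p = 0.00153). Of the 56 tested genes of the cuticular protein family it alone was called (1.79%, beside 1.33% of all genes tested). The family's median was −0.07, with a range from −0.15 without dapPCNA 2 to −0.01 without dapPCNA 1. The sulfotransferase St4 had 53.5 and 58.4 RPKM in dapPCNA and 97.1 and 91.9 RPKM in dap, with 57.5 and 59.4 RPKM in the control (log2 change −0.76, adjusted p = 0.00519, and 0.0539 without dapPCNA 1). CG30148, Cpr51A and the P450 gene Cyp4p2 described next were the 3 genes that stayed called in all 21 alternatives. For the remaining genes among the 12 largest decreases, CG30380, snoRNA:SC35-b, CheA75a, CG18278 and snoRNA:Or-CD2 had log2 changes between −1.79 and −1.11, and the others were ial, Kmn2, Hey and CAP-D2 above. Few reads lay behind several of these changes. An estimated 2 and 2 reads of snoRNA:SC35-b were counted in dapPCNA and 9 and 6 in dap. The estimates were 9 and 6 against 20 and 25 reads for CheA75a, and 16 and 12 against 31 and 33 for snoRNA:Or-CD2. For CG30380 they were 24 and 9 against 57 and 53, and for CG18278 49 and 47 against 119 and 111. On the annotation snoRNA:Or-CD2 overlaps Ctu1 and CG18278 overlaps BaraA2, so their values are uncertain.

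The genes that rose included a pair of cytochrome P450 genes, neighbours on arm 2R whose products oxidize small molecules. Cyp4p2 (2R, 9237512 to 9239831) had 30.7 and 32.4 RPKM in dapPCNA and 9.49 and 11.1 RPKM in dap, with 10.7 and 11.1 RPKM in the control. Both dapPCNA libraries stood above all other libraries, of which dapCRL4 came nearest at 19.1 and 16.3 RPKM. The log2 change was 1.62 ± 0.11 (SE), 3.07-fold, with an adjusted p of 0.000581. Cyp4p1 had 4.12 and 4.15 RPKM in dapPCNA and 1.25 and 1.24 RPKM in dap, with 1.01 and 1.31 RPKM in the control (log2 change 1.73, adjusted p = 0.00986). The genes are relatives, and reads that match both could be counted for either.

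Several other genes rose by 2-fold or more. CG33128 had 3.11 and 3.21 RPKM in dapPCNA and 0.988 and 0.627 RPKM in dap, but 3.60 and 3.48 RPKM in the control (4.01-fold, adjusted p = 0.0093). The tetraspanin Tsp42En, a membrane protein, had 18.3 and 19.8 RPKM in dapPCNA and 10.3 and 6.40 RPKM in dap, with 11.2 and 12.2 RPKM in the control (log2 change 1.23, adjusted p = 0.0197). The overlapping genes CG42305 and CG17325 share an exon length of 1140 bases and may share reads, and their log2 changes were 1.33 and 1.11 (adjusted p = 0.0197 and 0.00986). Below 2-fold, CG31705 had 60.1 and 59.0 RPKM in dapPCNA and 32.6 and 34.5 RPKM in dap, with 39.4 and 44.5 RPKM in the control (log2 change 0.83, adjusted p = 0.00519, and 0.0522 without dapPCNA 1). CG15818 had 69.4 and 61.3 RPKM in dapPCNA and 36.0 and 36.0 RPKM in dap (log2 change 0.86, adjusted p = 0.00519). The remaining genes of the 12 largest increases were CG32512, CG15615, Nos (nitric oxide synthase), CG9449 and Tis11 (an RNA-destabilizing zinc finger protein), with log2 changes from 0.91 to 1.30. Of the 12, 10 were called after the length correction. Of them 1 was called without dapPCNA 1, 3 without dapPCNA 2, 9 without dap 1 and 3 without dap 2. CG15615 overlaps CG15919, and Tis11 overlaps noncoding genes. Of the 12 largest decreases, 1, 3, 4 and 3 were called without dapPCNA 1, dapPCNA 2, dap 1 and dap 2 in that order. Of the 11 with an exon length, 5 were called after the length correction. CG30380 (adjusted p = 0.109), snoRNA:SC35-b (0.0925), CheA75a (0.0679) and Kmn2 (0.0516) lost the call there, as did CG2681 and TotE.

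Across all 36 genes that rose, the control mean was nearer to dapPCNA than to dap in 24, and across the 102 that fell in 59. For Cpr51A and CG33128, for example, dapPCNA and the control lay together and dap apart, whereas for the called genes of the mitosis list the control lay nearer to dap. These counts are descriptions.

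**Figure D3:**
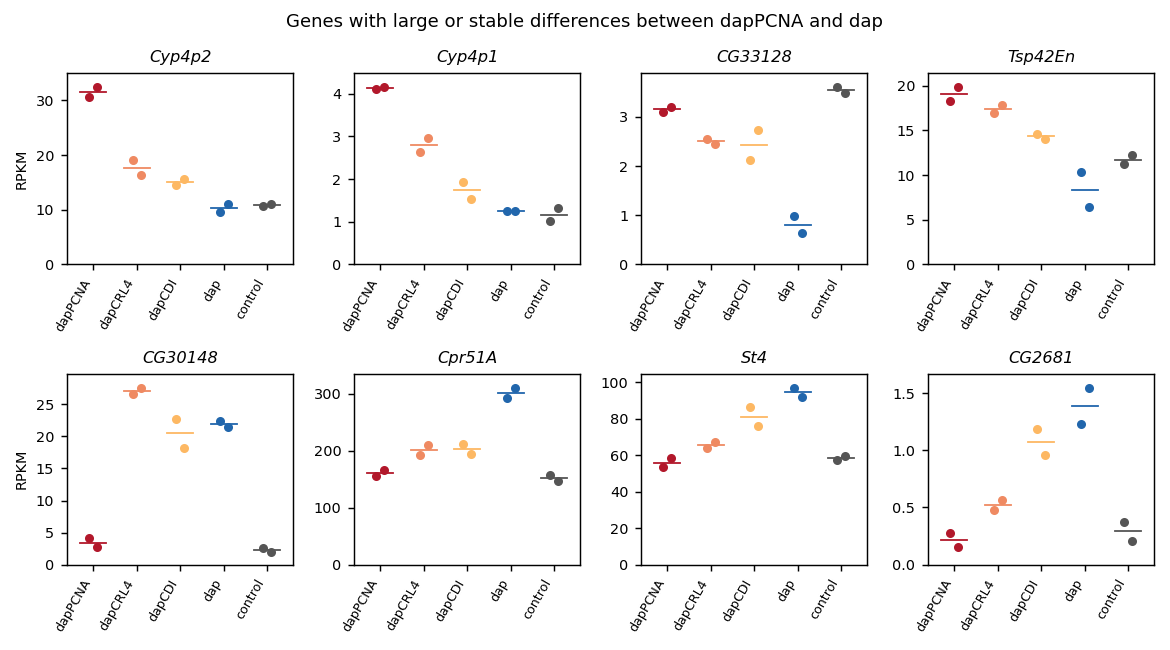
RPKM in every library for 8 genes with large or stable differences, with 2 points for each genotype and a line at their mean. Cyp4p2 and Cyp4p1 are highest in dapPCNA, CG30148 is low in dapPCNA and the control, and for Cpr51A and St4 the dap libraries stand highest.

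Muscle genes with long transcripts were among those that rose. Of 35 tested muscle genes, 2 were called higher (5.71%, beside 0.346% of all genes tested) and 0 lower, with a median log2 change of 0.22 and of 0.18 after the length correction. Muscle myosin heavy chain (Mhc) had 966 and 929 RPKM in dapPCNA and 657 and 725 RPKM in dap, with 818 and 899.9 RPKM in the control (log2 change 0.46, adjusted p = 0.0302). The giant sarcomere protein projectin (bt), a relative of titin, had 70.7 and 66.8 RPKM in dapPCNA and 46.0 and 43.9 RPKM in dap, with 51.7 and 59.3 RPKM in the control (log2 change 0.61, adjusted p = 0.0172). After the length correction their changes were 0.21 (adjusted p = 0.501) for Mhc and 0.18 (adjusted p = 0.658) for bt, and neither was called. Over the alternatives the adjusted p ran from 0.00573 to 0.508 for Mhc and from 0.00961 to 0.662 for bt. The exon length of bt is 28019 bases and that of Mhc 9058. The summed level of the muscle list was 26843 and 27807 RPKM in dapPCNA and 23225 and 25907 RPKM in dap.

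With the genes split into 5 equal bins by exon length, the median log2 change was −0.20 in the shortest genes, then −0.15, −0.09, 0.01 and 0.17 in the longest. In the longest it was 0.26 without dap 1 and 0.07 without dap 2. The bin of the shortest held 1 gene called higher and 38 called lower, and that of the longest held 21 called higher and 4 lower. Among the 21 were Mical and Fhos, regulators of actin, the splicing factor mbl, the papilin gene Ppn of the basement membrane, and svp. Of these 21, 4 were called after the length correction, 0 were called without dapPCNA 1, dapPCNA 2 or dap 2, and 4 were called without dap 1. The median exon length was 4806 bases for genes called higher and 1293 bases for genes called lower, beside 2002 bases for all genes tested. After the length correction the shortest bin held 7 genes called higher and 7 called lower, and the longest 4 higher and 10 lower. Of the 102 genes called lower on the deposited values 43 stayed called after the correction, and of the 36 called higher 18 did.

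**Figure D4:**
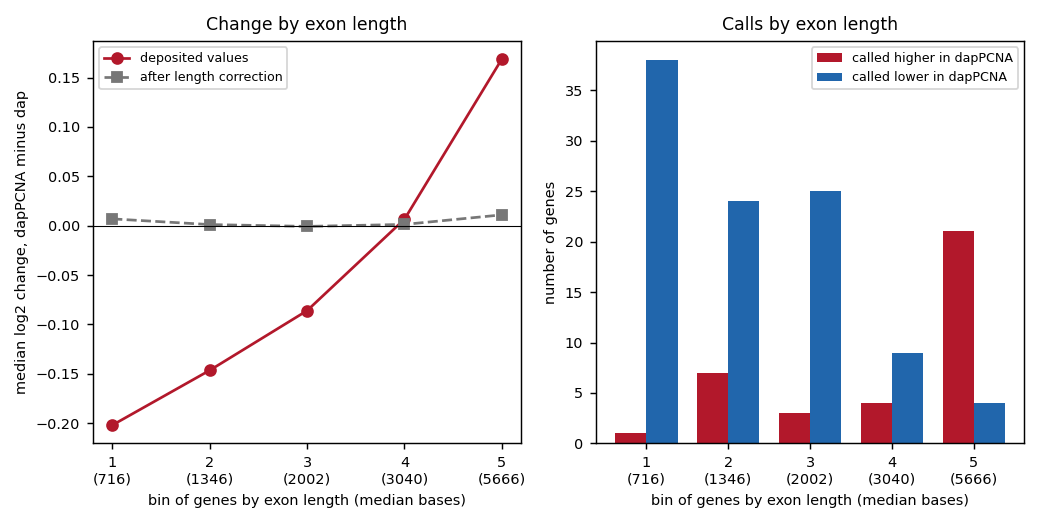
Left, the median log2 change between dapPCNA and dap for each of 5 bins of genes by exon length, with the deposited values as circles and the corrected values as squares. Right, the number of genes called higher and lower in each bin on the deposited values, 1 and 38 in the shortest and 21 and 4 in the longest.

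Lists of other tissues and functions held few or no called genes. Over all 10396 genes tested, 2494 had an unadjusted p under 0.05 by limma, and the counts below stand beside that share. Among 47 neuronal and synaptic genes 0 were called by limma and 16 had an unadjusted p under 0.05, with a median log2 change of 0.32 that became 0.13 after the length correction, and the median exon length of this list was 6742 bases. Without dap 2 the median was 0.17, and the list's median deviation from the mean of all libraries was −0.32 in dap 2 and 0.01 in dap 1. Their summed level was 2322 and 2247 RPKM in dapPCNA and 2128 and 1913 RPKM in dap. The pan-neuronal marker elav had 38.9 and 33.9 RPKM in dapPCNA and 43.3 and 28.7 RPKM in dap (log2 change 0.04, adjusted p = 0.92). Of the 47 neuronal and synaptic genes, 44 had positive changes, beside 4326 of all 10396 genes tested. Glial genes (23 tested, median 0.08), genes of trachea and salivary gland (24 tested, median −0.02), of gut and Malpighian tubule (22 tested, median 0.08) and of germ cells (12 tested, median 0.01) had 0 calls, with 6, 6, 7 and 2 genes at an unadjusted p under 0.05. The glial marker repo had 19.4 and 18.7 RPKM in dapPCNA and 24.4 and 21.6 RPKM in dap (log2 change −0.27, adjusted p = 0.125). It was not typical of its list, in which 16 of the 23 genes had positive changes. Among 24 genes of hemocytes, basement membrane and fat body, Ppn alone was called (4.17%, beside 0.346% of all genes tested that were called higher). The median log2 change of these 24 genes was 0.26, and 0.12 after the length correction. Of the 24, 12 had an unadjusted p under 0.05 by limma and 19 had positive changes. Ppn had 228 and 223 RPKM in dapPCNA and 179 and 168 RPKM in dap. Its log2 change was 0.38 (adjusted p = 0.0499, limma), and 0.13 after the length correction. Markers of the other tissues were not called, with 62.9 and 53.1 RPKM in dapPCNA and 47.4 and 45.3 RPKM in dap for the hemocyte and fat body factor srp. The tracheal receptor btl had 5.19 and 5.05 RPKM in dapPCNA and 5.49 and 6.59 RPKM in dap, and the germ cell gene vas had 7.90 and 7.07 RPKM in dapPCNA and 6.51 and 6.47 RPKM in dap. The 24 tested ecdysone response genes, read here as a clock of stage, had 0 calls, 12 genes at an unadjusted p under 0.05 and a median of 0.20, which was 0.04 after the correction. The lists for cuticle and epidermis (39 tested), metal response (11), immune-induced peptides (16) and markers of transgenes and strains (16) had 0 calls, with 7, 1, 3 and 3 genes at an unadjusted p under 0.05 and medians of −0.01, 0.04, −0.12 and 0.01. Several of these medians near 0 changed sign when 1 library was left out. Without dap 1 they were 0.0031 for trachea and salivary gland and 0.03 for immune-induced peptides, which stood at 0.13 without dapPCNA 1. Without dap 2 they were −0.05 for gut, −0.06 for germ cells and −0.04 for transgene markers, and without dapPCNA 2 −0.05 for germ cells and −0.03 for transgene markers.

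Ribosomal protein and proteasome genes had small negative medians. Over all 10396 genes tested, 6069 had negative changes and 2494 had an unadjusted p under 0.05 by limma. Of 90 cytosolic ribosomal protein genes 89 had negative changes, 0 were called by limma and 30 had an unadjusted p under 0.05, with a median of −0.16 that became 0.02 after the correction. Without dap 1 the median was −0.26 and without dap 2 it was −0.06, and their summed level was 330832 RPKM in dap 1 and 384511 RPKM in dap 2. The medians of 73 mitochondrial ribosomal protein genes and 33 proteasome genes were −0.20 and −0.15, with 0 calls and 24 and 9 genes at an unadjusted p under 0.05. After the correction these medians were −0.0037 and −0.0019. Among 17 apoptosis genes and 26 genes of DNA damage response and repair 0 were called, with 6 and 1 at an unadjusted p under 0.05 and medians of −0.12 and −0.01. Without dap 1 these medians were −0.03 and 0.04. Of the heat shock and stress list 31 were tested, 0 were called and 8 had an unadjusted p under 0.05, with a median of 0.28 and of 0.42 after the correction. Hsp26 had 387 and 557 RPKM in dapPCNA and 329 and 152 RPKM in dap, and the 2 dap libraries differed from each other (log2 change 1.05, adjusted p = 0.233).

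**Figure D5:**
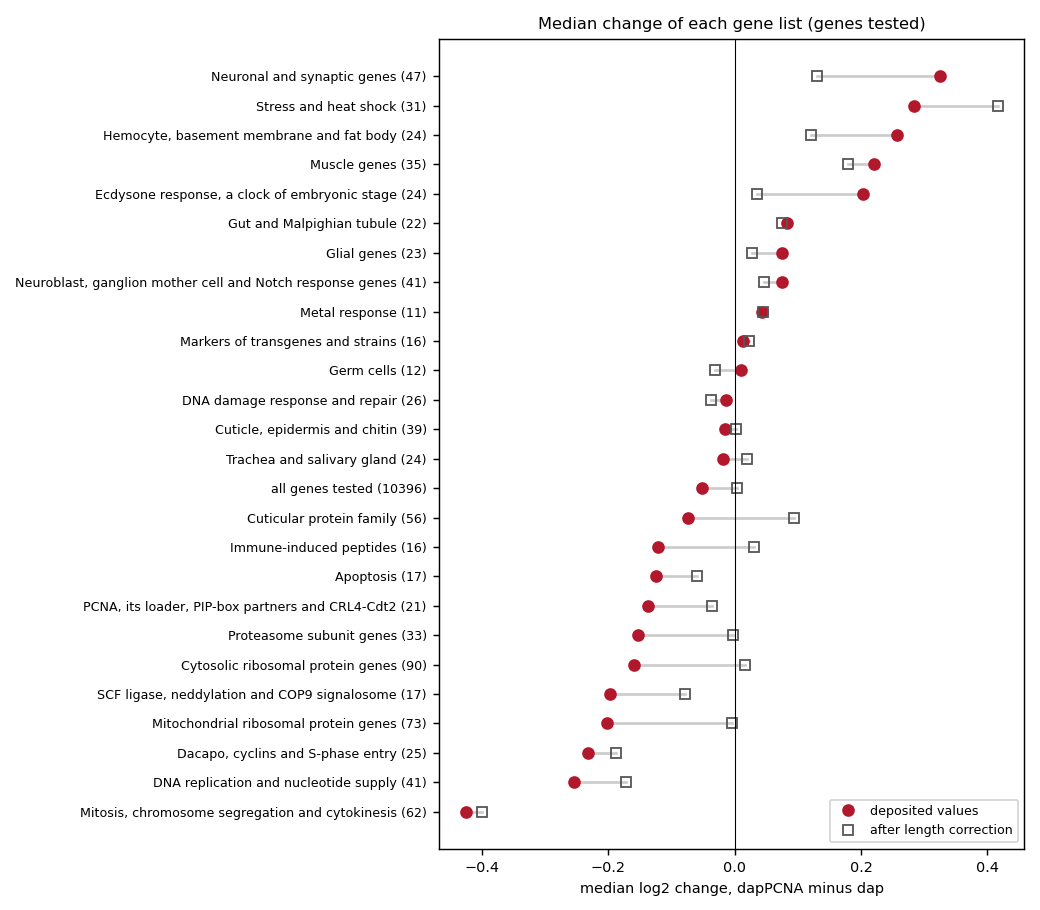
Median log2 change of each gene list between dapPCNA and dap, with the number of genes tested in brackets, as filled circles for the deposited values and open squares after the length correction. The mitosis list lies lowest on both scales, at −0.42 and −0.40, while lists of short genes such as the ribosomal proteins move to near 0 after the correction.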

How the data were processed

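PolyA RNA of whole embryos was sequenced in single reads of 50 bases, with a depth in the labels between 20.7 and 43.4 megareads. The authors deposited log2 total RPKM per gene and library, on build BDGP6 per the submitters' processing notes. For the aligner, counter, annotation release and use of strand the answer is: not given in the sources used here. A gene with no reads holds a deposited log2 floor of −9.10916. Counted reads of control 1 were estimated from the most frequent value among low genes, scaled by exon length. The other libraries were placed by the most frequent log2 shift of low genes against control 1. In each of them, at least 85.7% of the genes compared then stood at whole-number ratios (tolerance 0.003 log2).

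Names were matched to the BDGP6 annotation, leaving 266 without position or length. The authors' log2 RPKM went unscaled into limma 3.58.1 (R 4.3.3) with 1 mean per genotype over 10 libraries, a mean-variance trend and two-sided tests. Permutation within 2 against 2 libraries cannot give a two-sided p under 0.333. P-values measure only the spread between the labelled samples. The length correction removed a lowess trend (span 0.3) on log exon length from each library. The fit was tested on simulated data. Alternatives were another pseudocount, filter, scaling, variance model, block, set of libraries and leaving out each library. Named genes are dap, PCNA, CycE, Cdk2, Cdt2 and Cul4, the 12 largest called changes each way, up to 3 called members of each list and, as stated, genes chosen after their values were seen. Called list members beyond 3, and uncalled list members named with values, were added in the same way. The comparison and lists were chosen with earlier results of these data known.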

Additional observations from a re-analysis of the deposited data

How the results depend on the processing

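Depth was 17.1 to 25.8 megareads counted per library, so genes near 1 RPKM rest on few reads. Against 138 calls, there were 87 with no filter, 209 with a mean of at least 5 RPKM, 82 after the exon length correction, 36 without a mean-variance trend and 25 with only the 4 libraries compared. Counts of 163 with log2(RPKM + 1), 170 for genes above the floor in all libraries, 145 after quantile normalization and 132 after median centring were within 1.5-fold. Leaving out each of the 10 libraries gave between 8 and 741 calls. No label says that a replicate number marks shared material, and the correlation of deviations between same-numbered dapPCNA and dap libraries was 0.0414. A replicate block gave 76 calls, 22 higher and 54 lower, with 70 of the 138 genes keeping the call. A replicate block with exon length correction gave 60 calls, 29 higher and 31 lower.

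The change of dap lay between −0.26 and −0.21 with single libraries left out, with an adjusted p of 0.0474 without dapCDI 1 and 0.0471 without dapCDI 2. The correlation of change with exon length ranged from 0.409 without dap 2 to 0.545 without dap 1. CycE, not called, ranged from −0.30 without dap 2 to 0.069 without dap 1. Cul-4, not called, had a log2 change of 0.0041 after quantile normalization and 0.021 after median centring, and ranged from −0.080 without dap 2 to 0.061 without dap 1. The cause of these shifts was not tested.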

Other observations

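Calls were not spread evenly over the chromosome arms. On 2L, 43 of 1895 tested genes were called (2.27%), 8 higher and 35 lower in dapPCNA, and on X 9 of 1619 were (0.556%), 4 higher and 5 lower. The shares were 1.42% on 2R, 1.42% on 3L, 0.871% on 3R and 4.71% of the 85 genes on chromosome 4. These are counts without a test, and where the transgenes were inserted is not given in the sources used here.

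Asparagine synthetase (asparagine-synthetase in the table, now AsnS) was called higher, with 25.9 and 29.8 RPKM in dapPCNA and 19.1 and 15.2 RPKM in dap (log2 change 0.71, adjusted p = 0.04 by limma). The arginine pathway enzyme CG9510, now Argl and encoding argininosuccinate lyase, was called lower, with 3.15 and 3.94 RPKM in dapPCNA and 7.34 and 7.18 RPKM in dap (log2 change −1.04, adjusted p = 0.0223). The branched-chain aminotransferase CG1673, now Bcat, was called higher, with 27.2 and 28.1 RPKM in dapPCNA and 22.3 and 19.8 RPKM in dap (log2 change 0.40, adjusted p = 0.046). These amino acid enzymes were chosen after their values were seen, and CG9510 overlaps 2 neighbours on the annotation. In each of these genes the control mean was nearer to dapPCNA than to dap. None of them was among the 3 genes that stayed called in all 21 alternatives.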
